A study of Mus musculus with 6 samples.

Results

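The immortalized cardiosphere-derived cells (iCDCs) of the mouse used here are called iECDCs in the study because they were grown from ventricular epicardium. The ELR CXC chemokine genes were followed in control iCDCs and in iCDCs induced with 5-azacytidine (5-aza). They were selected by gene symbol as 7 ligand genes that lie side by side on chromosome 5 (Cxcl1, Cxcl2, Cxcl3, Cxcl5, Cxcl15, Ppbp and Pf4) and the receptor gene Cxcr2, which makes 8 of the 54532 genes in the count table. The group was chosen because Cxcl5 and its neighbours differed between control and induced cells in these same libraries. Their control and induced values are therefore a description, given without a test.

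Sequencing of total RNA gave 3 control and 3 induced libraries, each said by the labels to be a separate sample. The labels do not say whether these samples were separate cultures, so p-values measure only the spread between them, which may be technical. All 6 libraries came from C57BL/6 heart ventricle iCDCs at passage 30, a line kept dividing by a lentiviral telomerase (hTERT) transgene. Induced cells received 10 µM of 5-aza, an inhibitor of DNA methyltransferases, for 3 days and then stood in IMDM with 2% FBS for 4 weeks, according to the labels. The study's methods name another medium and a shorter culture for that step, and no source used here states how long the control cells were kept. Drug, medium, serum and time in culture cannot be told apart. The libraries held 19041133 to 19823369 reads, and 14246 genes passed the filter on low counts. Of the 12 cardiosphere and epicardial marker genes examined, including Eng, Thy1, Ly6a, Tbx18 and Gata4, all 12 passed that filter. All 12 also differed between the groups (edgeR, adjusted p under 0.05), 7 higher and 5 lower in induced cells. Of all tested genes, 64.8% differed.

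Chemokines are small secreted proteins that steer migrating cells along a gradient. CXC chemokines carry their first 2 cysteines separated by another residue, and the ELR subclass has glutamate, leucine and arginine just before them, which lets them bind CXCR2 and draw neutrophils. Mesenchymal and epithelial cells release them after interleukin-1, interleukin-17 or tumour necrosis factor signalling through NF-kB, and the secreted ligands are held on heparan sulfate. Pf4 (platelet factor 4) and Ppbp (the precursor of CXCL7) are best known from platelet granules, and Cxcl15 (lungkine) from lung epithelium.

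The name of the group was checked against the coding sequences of GENCODE M21, and the codons are shown because they separate the ligands that carry the ELR motif from the ligand that does not. The stretch of 6 codons is printed 5′ to 3′ on the plus strand of GRCm38, with the 3 codons at the ELR position in capitals and the 3 codons of the CXC motif in lower case.
Cxcl5 (chr5:90759718-90759735): GAGCTGCGTtgtgtttgc
Cxcl15 (chr5:90795219-90795236): GAGCTACGAtgtctgtgt
Cxcl1 (chr5:90891487-90891504): GAGCTGCGCtgtcagtgc
Cxcl2 (chr5:90904133-90904150): GAACTGCGCtgtcaatgc
Cxcl3 (chr5:90786359-90786376): GAGCTGCGCtgtcagtgc
Ppbp (chr5:90769076-90769093): GAACTGCGCtgcagatgt
Pf4 (chr5:90772935-90772952): GATCTTAGCtgtgtgtgt
These codons encode ELR in 6 of the 7 ligand genes. Pf4 lacks the motif, so the group is an ELR cluster with the ELR-negative Pf4 inside it. Over the whole coding sequence, Cxcl2 and Cxcl3 were the closest pair with 89.8% identical bases, followed by Cxcl1 and Cxcl2 with 78.7%. Cxcl5 and Cxcl15 were identical at 68.4% of aligned bases, and the pair of Ppbp and Pf4 at 65.7%.

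Cxcl5 (ENSMUSG00000029371, chr5:90759360-90761624), a neutrophil attractant of epithelial and stromal cells, was the most abundant member by far in control cells. Its counts were 3520, 3196 and 3364 reads in control libraries 1, 2 and 3, and 16, 7 and 12 reads in induced libraries 1, 2 and 3. The lowest control library thus lay far above the highest induced library. In CPM, the count scaled to library size with trimmed mean of M values (TMM) factors, the level was 169.9 ± 7.85 in control cells and 0.616 ± 0.241 in induced cells (SD, n = 3 each). The log2 fold change, induced over control, was -8.09 with a standard error of 0.12, a level 273-fold lower. Bulk RNA cannot tell apart fewer cells that make a transcript and less of it in each cell.

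Only Krt13 had a lower fitted log2 fold change than Cxcl5 among the 14246 tested genes, and Krt13 had no read in the induced libraries, so its fitted value depends on the prior count. On the FPKM scale, which divides by gene length, Cxcl5 stood at 90.3 ± 4.25 in control cells and at 0.330 ± 0.130 in induced cells. The control mean was above that of 97.8% of the 22046 protein-coding genes in the table, at rank 481. The induced mean was at rank 11853, above 46.2% of them.

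Cxcl15 (ENSMUSG00000029375, chr5:90794534-90803067) was the other ligand with a high control level. It had 781, 822 and 700 reads in the control libraries and 4, 11 and 1 reads in the induced libraries. The groups were again far apart, while the induced libraries differed widely among themselves. Its level was 38.8 ± 3.47 CPM in control cells and 0.281 ± 0.270 CPM after induction, with a log2 fold change of -7.08 and a standard error of 0.21. This placed it at rank 8 from the lowest of all tested genes. Induced library 2 held most of the induced reads of Cxcl15, and without that library the log2 fold change was -8.13. Transcripts of the lung epithelium, the tissue for which this ligand is best known, were close to the limit of detection: 4 of 8 markers (Scgb3a2, Sftpd, Sftpa1 and Nkx2-1) had 0 reads in all 6 libraries, and the summed level of the 8 ranged from 0.0501 to 0.153 CPM in control libraries and from 0 to 0.472 CPM in induced libraries.

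Cxcl1 (ENSMUSG00000029380, chr5:90891241-90893115), the mouse counterpart of the GRO chemokines, was far less abundant. It had 24, 29 and 30 reads in the control libraries and 3, 4 and 2 reads in the induced libraries, so that the groups did not overlap. The corresponding levels were 1.40 ± 0.159 and 0.158 ± 0.0528 CPM, with a log2 fold change of -3.09 and a standard error of 0.43. Over the pooled reads of each group, the level in control cells was 8.85 times that in induced cells, with an exact 95% interval of 4.44 to 20.03 for counting error alone.

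Pf4 (ENSMUSG00000029373, chr5:90772435-90773383) had 28, 17 and 30 reads in the control libraries and 9, 4 and 2 reads in the induced libraries. These groups did not overlap either, although the gap between control library 2 and induced library 1 was small in reads. Its level was 1.26 ± 0.346 CPM in control cells and 0.265 ± 0.193 CPM after induction, with a log2 fold change of -2.23 and a standard error of 0.46. Without induced library 1 the log2 fold change was -2.95.

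The other 3 ligand genes were near the limit of detection. Ppbp (ENSMUSG00000029372, chr5:90768518-90770063) had 7, 5 and 4 reads in the control libraries and 0 in each induced library. Against a floor of 3 reads over the induced group, Ppbp was at least 5.12-fold lower in induced cells, with its control reads taken as exact. Cxcl2 (ENSMUSG00000058427, chr5:90903871-90905938) had 5 reads and Cxcl3 (ENSMUSG00000029379, chr5:90786103-90789600) had 4 reads, all of them in control library 3. Control libraries 1 and 2 had 0 reads of both genes, like the induced libraries, so no fold is given. These 2 ligands, which are acutely induced in many inflamed tissues, were thus not detectable in 5 of the 6 libraries. In those 5 libraries a count of 0 allows up to 0.152 to 0.159 CPM. Of the stretches of 50 bases in the transcripts of Cxcl2, 5.84% also occur in Cxcl3, so reads of this pair may have been lost or split in counting.

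The receptor gene Cxcr2 (ENSMUSG00000026180, chr1:74153989-74161246) had 0 reads in each control library and 0, 2 and 1 reads in the induced libraries. Both groups were at or below the floor of 3 reads, so no fold is given. Cxcr1, the other receptor for ELR ligands, had 0 reads in all 6 libraries. Ackr1, a scavenging receptor that binds many chemokines, had 6 reads over the control libraries and 14 over the induced libraries.

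**Figure D1:**
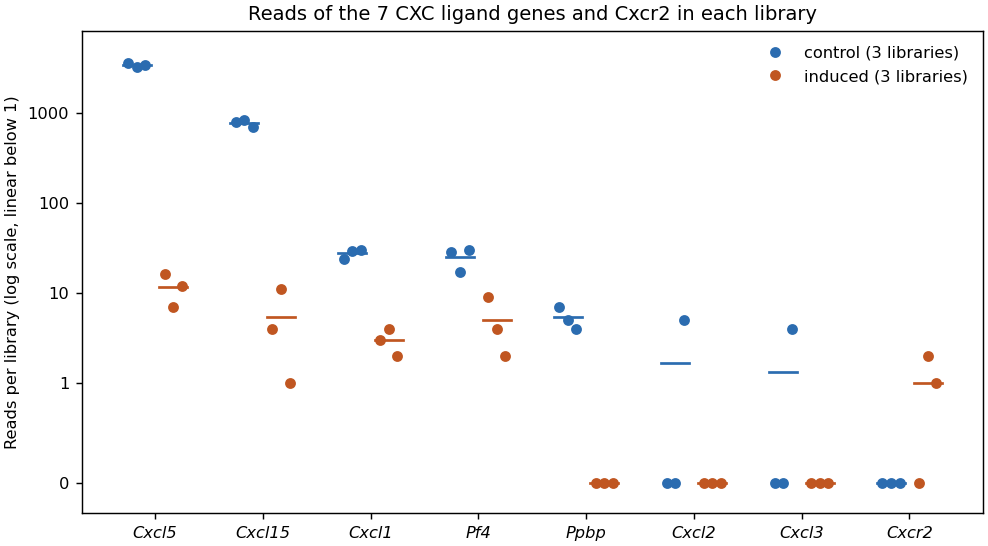
Reads of the 8 genes in each library, on a log scale that is linear below 1 read. Each point is a library, blue for control and orange for induced, and each short line is the mean of 3 libraries. Cxcl5 lies at 3196 to 3520 reads in control libraries and at 7 to 16 reads in induced libraries, while Cxcl2, Cxcl3 and Cxcr2 stay at or near 0 throughout.

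In all, 5 of the 8 genes had reads in every control library, 4 had reads in every induced library and 4 passed the filter on low counts. The 4 that passed (Cxcl5, Cxcl15, Cxcl1 and Pf4) did so through the control libraries, and all 4 were lower in every induced library than in every control library. Such a separation in this direction was found for 34.5% of all tested genes, and in either direction for 68.6%. Since the genes were chosen on this contrast, nothing is read from their count.

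The 7 ligand genes together took 12566 reads over the control libraries and 75 over the induced libraries. Their summed level was 211.8 ± 7.88 CPM in control cells against 1.32 ± 0.407 CPM after induction. Cxcl5 supplied 80.7%, 78.5% and 81.3% of these reads in control libraries 1, 2 and 3, and Cxcl15 supplied 17.9%, 20.2% and 16.9%. The makeup of the control libraries was therefore nearly the same from library to library. In induced libraries 1, 2 and 3, Cxcl5 supplied 16, 7 and 12 reads of totals of only 32, 26 and 17. Pf4, which held 0.595% ± 0.159 of the ligand reads in control cells, held 18.4% ± 8.59 in induced cells, and the share of Cxcl1 was 0.663% ± 0.0975 and 12.2% ± 3.03 in the same order. These shares are fractions of a small remainder: the reads of Pf4 and Cxcl1 themselves were fewer in every induced library than in any control library.

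**Figure D2:**
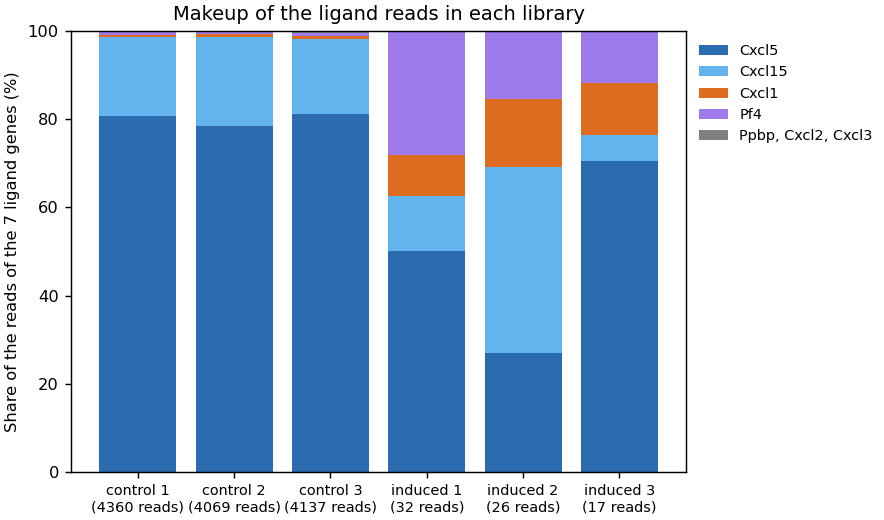
Share of each gene in the reads of the 7 ligand genes (%), 1 bar per library, with the number of ligand reads under each bar. Cxcl5 (dark blue) and Cxcl15 (light blue) fill nearly all of the 3 control bars, while the 3 induced bars rest on 32, 26 and 17 reads and differ among themselves.

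Levels of different ligands were compared per length, in FPKM, over all 15 CXC ligand genes in the table. In control cells Cxcl12, the CXCR4 ligand that retains stem and progenitor cells, led with 669 FPKM, and Cxcl5 with 90.3 and Cxcl15 with 18.1 followed, ahead of Cxcl16 with 9.70. Pf4 at 1.74 and Cxcl1 at 0.739 were the fifth and the seventh in this order, on either side of Cxcl14 at 1.42. The library ranges of Cxcl12, Cxcl5, Cxcl15 and Cxcl16 did not overlap, whereas those of Pf4 and Cxcl14 did, and so did those of Cxcl2 and Cxcl3 at the bottom of the order. In induced cells Cxcl12 still led with 184 FPKM and was followed by Cxcl16 with 12.4 and Cxcl10 with 2.52. Pf4 at 0.366, Cxcl5 at 0.330, Cxcl15 at 0.132 and Cxcl1 at 0.0842 FPKM took places 7 to 10, and each overlapped its neighbour among these 4 in range. Cxcl5 thus stood at rank 2 of 15 CXC ligands in control cells and at rank 8 after induction. The gene lengths behind FPKM include retained introns for some of these genes, such as 1875 bases for Cxcl1 against 953 bases in its coding transcript, which lowers its FPKM.

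The genes outside the cluster that followed Cxcl5 most closely over the 6 libraries were found by the root mean square difference of centred log2 CPM. The measure takes up any gene with a large loss of reads, and it was applied to the same libraries that chose Cxcl5. Cxcl15 was at rank 3 with 1.14, while Cxcl1 was at rank 86 with 2.62 and Pf4 at rank 180 with 2.95. The 5 nearest genes outside the cluster were Nlrp2 (0.949), Krt13 (1.03), Slc4a8 (1.31), Plac1 (1.48) and Cdh6 (1.51).

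Nlrp2, a member of the NLR family with a pyrin domain, had 101, 127 and 140 reads in the control libraries against 1, 1 and 0 after induction, a pooled ratio of 177 with an exact interval of 48.5 to 1463. Krt13, an epithelial keratin, had 47, 52 and 25 reads in control libraries and none in induced libraries, which is at least 39.7-fold lower. Slc4a8, a bicarbonate transporter, and Cdh6, a cadherin, also had no induced read and were at least 24.0-fold and at least 17.6-fold lower. Plac1, a gene of the placenta on the X chromosome, went from 13.7 ± 0.856 to 0.334 ± 0.0624 CPM. All 5 lie on other chromosomes than the ligand cluster. Their control levels, at most 13.7 CPM, were all below that of Cxcl5. The Pearson correlation with Cxcl5 was above 0.99 for 726 of 14242 genes, and none of its 5 highest genes was among these 5, so that the names depend on the measure. With 2 groups of 3 libraries that lie far apart, a correlation reflects little beyond the gap between the groups.

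**Figure D3:**
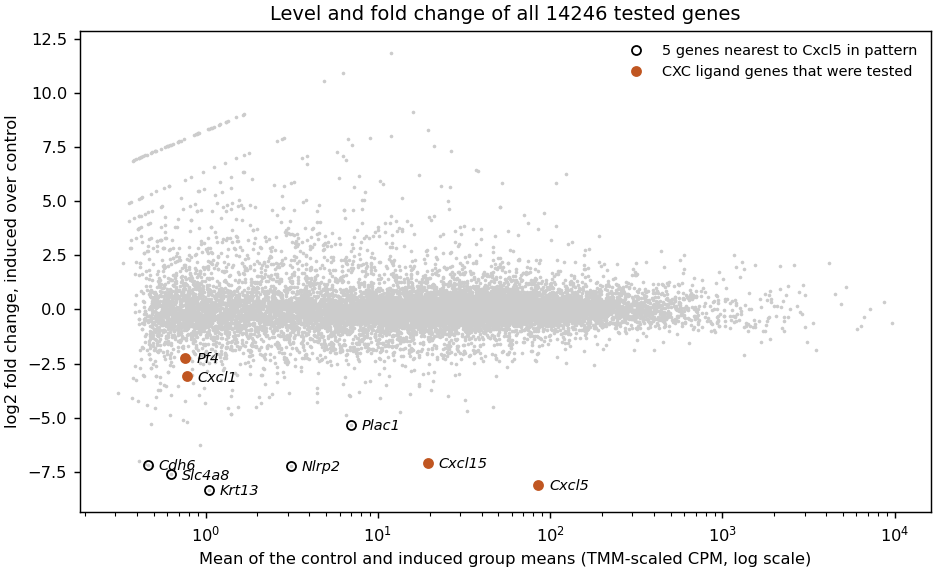
Mean level (CPM, log scale) against log2 fold change, induced over control, for all 14246 tested genes in grey. The 4 tested ligand genes are filled and the 5 genes nearest to Cxcl5 are open circles; Cxcl5 at -8.09 and Cxcl15 at -7.08 lie below the other genes of similar level, and the strings of points at low level are genes with 0 reads in a group.

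The 7 ligand genes span 146.6 kb of chromosome 5, from 90759360 to 90905938, in the order Cxcl5, Ppbp, Pf4, Cxcl3, Cxcl15, Cxcl1 and Cxcl2, and all are on the plus strand. The order of the log2 fold changes did not follow position: Pf4 (-2.23) lies between Cxcl5 (-8.09) and Cxcl15 (-7.08), 13.1 kb from the start of Cxcl5. Within 500 kb on either side there are 25 other genes, of which 11 had 0 reads in all libraries. Only 6 could be tested. In edgeR's quasi-likelihood fit, with p-values adjusted over all tested genes by the Benjamini-Hochberg method, 5 fell and 1 rose, beside 32.2% and 32.6% of all tested genes, and the median log2 fold change of the 6 was -1.41 beside -0.01 for all tested genes. With a window of 1 Mb on either side, 10 genes were tested, of which 3 rose and 6 fell, and the median was -0.69.

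Gm43085, an unconfirmed gene model that starts 193 bases beyond the end of Cxcl15 on the same strand, had levels of 1.42, 1.48 and 1.65 CPM in control libraries and 0, 0 and 0.105 CPM in induced libraries. Its log2 fold change was -5.19 (adjusted p = 6.05e-07, edgeR), on 90 control and 2 induced reads, a pooled ratio of 43.2 with an exact interval of 11.6 to 362. Whether its reads continue from Cxcl15 was not tested. No protein-coding gene other than the ligands lies between Cxcl5 and Cxcl2.

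Mthfd2l, a mitochondrial enzyme of folate metabolism and the first coding gene beyond Cxcl2, had 17.1, 16.5 and 17.4 CPM in control and 7.71, 7.15 and 7.23 CPM in induced libraries, and the groups did not overlap (log2 fold change -1.21, adjusted p = 4.34e-09, edgeR). Ereg, which encodes the EGF receptor ligand epiregulin, fell from 7.05 to 2.30 CPM (log2 fold change -1.61, adjusted p = 1.10e-06, edgeR). Gm19610 is antisense to Ereg and shares 34.6% of its exon bases with it, so its fall (log2 fold change -2.61, adjusted p = 2.87e-04, edgeR) is uncertain, since the strand setting of the counting is not given in the sources used here. Areg, another EGF receptor ligand gene, had 15 reads over the control group and 0 after induction. This is at least 4.80-fold lower with the control reads taken as exact, and Areg was not tested.

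The outermost genes changed less or in the opposite direction. Ankrd17, the farthest tested gene before Cxcl5, had a log2 fold change of -0.17 (adjusted p = 0.0205, edgeR). The call was lost when control library 1, induced library 1 or induced library 3 was left out (adjusted p = 0.126, 0.110 and 0.0925, edgeR). It was also lost with limma on log2(FPKM + 1) and log2(FPKM + 0.1) (adjusted p = 0.126 and 0.123). Btc, which encodes betacellulin, rose with a log2 fold change of 1.14 (adjusted p = 0.00833, edgeR), and its adjusted p was 0.0508 with DESeq2 and 0.0552 without induced library 2. The liver genes Alb and Afp of the same window had too few reads to be tested.

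**Figure D4:**
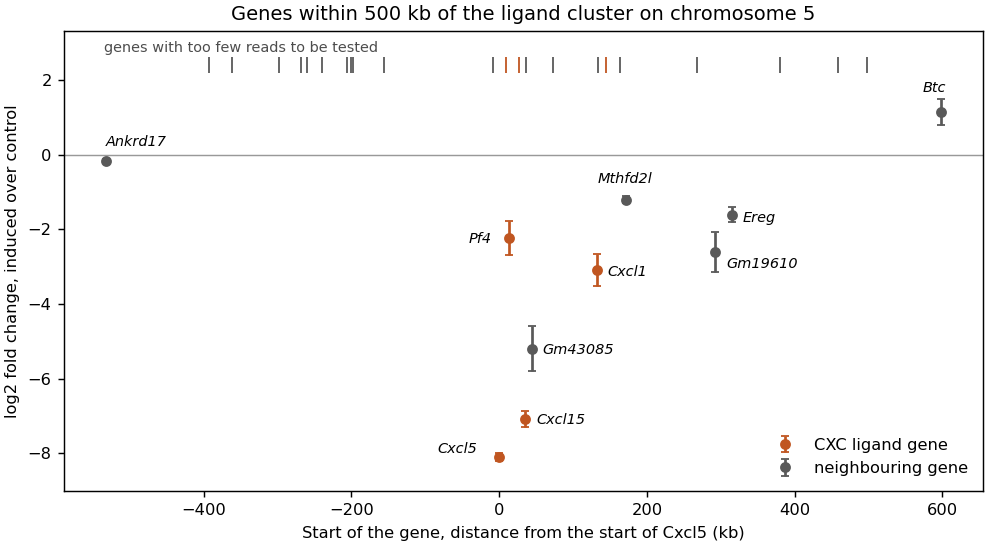
Log2 fold change, induced over control, against distance from the start of Cxcl5 (kb) for genes within 500 kb of the ligand cluster. Orange points are ligand genes, grey points are neighbouring genes, bars are standard errors and ticks at the top are genes with too few reads to be tested. Cxcl5, Cxcl15 and Gm43085 are lowest, Pf4 between them is at -2.23, and Btc on the far right is above 0.

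Promoter windows of 300 bases, 250 before and 50 after the start, were available from RefSeq (GRCm38.p6) for 7 of the 8 genes, all but Cxcl5. Those of Cxcl1, Cxcl2 and Cxcl3 are shown because they hold a motif of the pathway that drives acute chemokine transcription. That of Cxcl15 is shown because it lacks the motif. Each line gives the 120 bases before the start on the plus strand, with matches to the NF-kB consensus, searched on both strands, in capitals.
Cxcl1 (chr5:90891125-90891244): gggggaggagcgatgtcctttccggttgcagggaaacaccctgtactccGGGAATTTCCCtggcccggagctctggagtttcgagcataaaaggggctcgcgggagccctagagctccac
Cxcl2 (chr5:90903779-90903898): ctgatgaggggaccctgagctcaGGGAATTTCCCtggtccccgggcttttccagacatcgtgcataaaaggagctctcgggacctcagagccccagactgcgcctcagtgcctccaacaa
Cxcl3 (chr5:90785981-90786100): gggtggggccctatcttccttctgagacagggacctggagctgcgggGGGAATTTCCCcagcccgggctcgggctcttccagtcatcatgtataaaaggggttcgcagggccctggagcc
Cxcl15 (chr5:90794414-90794533): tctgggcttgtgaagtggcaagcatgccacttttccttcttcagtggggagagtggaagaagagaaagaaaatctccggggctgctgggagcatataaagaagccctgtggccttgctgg
Cxcl1, Cxcl2 and Cxcl3 hold the same run of 11 bases, which matches on both strands with the 2 matches overlapping, starting 71, 97 and 73 bases before the start. Such a match is found in 4.51% of all 32851 windows. No match was found in the windows of Cxcl15, Ppbp, Pf4 and Cxcr2. The scarce Ppbp and Pf4 thus lack it like the abundant Cxcl15.

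The TATA box letters TATAAA, searched on both strands, begin 27 bases before the start in Cxcl15 and 30 bases before it in Cxcl3 and Ppbp, and 13.6% of all windows hold them. The AP-1 letters TGANTCA, searched on both strands, were found only in Ppbp among the 7 windows, beside 7.81% of all windows. CpG dinucleotides, the sites at which DNA methyltransferases act, numbered 10, 11 and 10 in the windows of Cxcl1, Cxcl2 and Cxcl3, 3 each in those of Cxcl15, Ppbp and Pf4, and 2 in that of Cxcr2. The median over all windows was 7, with quartiles of 3 and 20. The window of Cxcl15 was thus at the lower quartile of CpG number. DNA methylation was not measured in these samples.

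Among the 8 CXC ligand genes outside the cluster, 5 could be tested, of which 3 rose and 1 fell (edgeR, adjusted p under 0.05, beside 64.8% of all tested genes called in either direction), with a median log2 fold change of 0.34. Cxcl12 fell from 5521 ± 55.3 to 1506 ± 29.8 CPM (log2 fold change -1.87, adjusted p = 1.67e-17). Cxcl10, an interferon-induced CXCR3 ligand, rose from 0.657 ± 0.0954 to 5.69 ± 1.52 CPM (log2 fold change 3.10, adjusted p = 8.84e-09). Cxcl13, the CXCR5 ligand that attracts B cells, rose with a log2 fold change of 4.53 (adjusted p = 8.17e-07) on 4 control and 97 induced reads. The ELR-negative ligands outside the cluster thus moved in both directions. The 4 tested genes of the cluster were chosen on this contrast, so their shared direction is not set against these ligands.

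The receptors and adaptors that carry interleukin-1 family, interleukin-17, tumour necrosis factor and Toll-like receptor signals all passed the filter on low counts. Il1rl1 did so on only 33 control and 75 induced reads, with 0.266, 0.473 and 3.20 CPM in induced libraries 1, 2 and 3. Of 24 tested genes, 9 rose and 7 fell, which is 66.7% called beside 64.8% of all tested genes, with a median log2 fold change of -0.04. Il1r1, the signalling receptor of interleukin-1, fell from 82.1 ± 4.69 to 31.2 ± 1.95 CPM (log2 fold change -1.39, adjusted p = 7.91e-13, edgeR). Il17ra fell by 0.49 on the log2 scale (adjusted p = 4.95e-07, edgeR), and Tlr3, a receptor for double-stranded RNA, rose by 1.00 (adjusted p = 4.42e-07, edgeR).

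Of 16 NF-kB kinases, subunits and inhibitors, 3 rose and 7 fell, which is 62.5% called beside 64.8% of all tested genes, with a median of -0.06. Without control library 1, 1 rose and 6 fell. Nfkbiz, which encodes the nuclear cofactor IkB-zeta, fell from 37.9 ± 3.32 to 12.2 ± 1.156 CPM (log2 fold change -1.64, adjusted p = 1.45e-11, edgeR). Nfkbia, the gene of the inhibitor IkB-alpha and itself an NF-kB target, fell from 51.5 ± 1.85 to 29.8 ± 2.80 CPM (log2 fold change -0.79, adjusted p = 9.51e-09, edgeR). Bcl3 fell by 0.54 on the log2 scale (adjusted p = 5.44e-07, edgeR).

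Of 28 other inflammatory genes often induced with ELR chemokines, 19 could be tested, of which 7 rose and 10 fell, with a median log2 fold change of -0.34. These are 36.8% and 52.6% of the tested members, beside 32.6% and 32.2% of all tested genes. Saa3, an acute-phase protein gene, fell from 2160 ± 139 to 496 ± 69.0 CPM (log2 fold change -2.12, adjusted p = 2.91e-14, edgeR). Lif, a cytokine of the interleukin-6 family, rose from 20.4 ± 0.720 to 78.9 ± 2.83 CPM (log2 fold change 1.95, adjusted p = 2.92e-15, edgeR), and the complement gene C3 rose by 1.09 on the log2 scale (adjusted p = 1.12e-13, edgeR). The CC chemokine genes Ccl2 and Ccl7, named after their values were seen, fell by 1.33 and 1.21 on the log2 scale (adjusted p = 9.84e-13 and 1.28e-11, edgeR). The falls of Saa3, Ccl2 and Ccl7 are not set against those of Cxcl5 and Cxcl15, which were chosen on this contrast.

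Of 12 regulators of chemokine mRNA decay, 0 rose and 10 fell (edgeR, adjusted p under 0.05), beside 32.6% and 32.2% of all tested genes, with a median of -0.30. With DESeq2, 0 rose and 9 fell. The list mixes factors that stabilize mRNA with factors that promote its decay, so its count gives no direction of decay. Rc3h2, which encodes the stem-loop binding protein Roquin-2, was the 1 gene that was higher at an unadjusted p under 0.05 (log2 fold change 0.19, adjusted p = 0.0539, edgeR), and 1 gene was called higher with the replicate number as a block. Whether these regulators bear on the values of the ligand genes was not tested. Hnrnpd, which encodes the AU-rich element binding protein AUF1, fell by 0.74 on the log2 scale (adjusted p = 1.34e-09, edgeR), Khsrp by 0.45 (adjusted p = 1.20e-07) and Zc3h12a, the gene of the nuclease Regnase-1, by 0.64 (adjusted p = 2.29e-06).

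Of 20 heparan sulfate carriers and enzymes, which provide the surface on which secreted CXC ligands are held, 12 rose and 4 fell, with a median of 0.29. Of all tested genes, 32.6% rose and 32.2% fell. Gpc3, a glypican, rose from 18.03 ± 1.24 to 73.1 ± 5.55 CPM (log2 fold change 2.02, adjusted p = 2.19e-14, edgeR). Sulf1, a sulfatase that trims heparan sulfate, rose by 1.85 on the log2 scale (adjusted p = 1.23e-15, edgeR), and Agrn, the gene of agrin, by 1.21 (adjusted p = 3.44e-13).

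**Figure D5:**
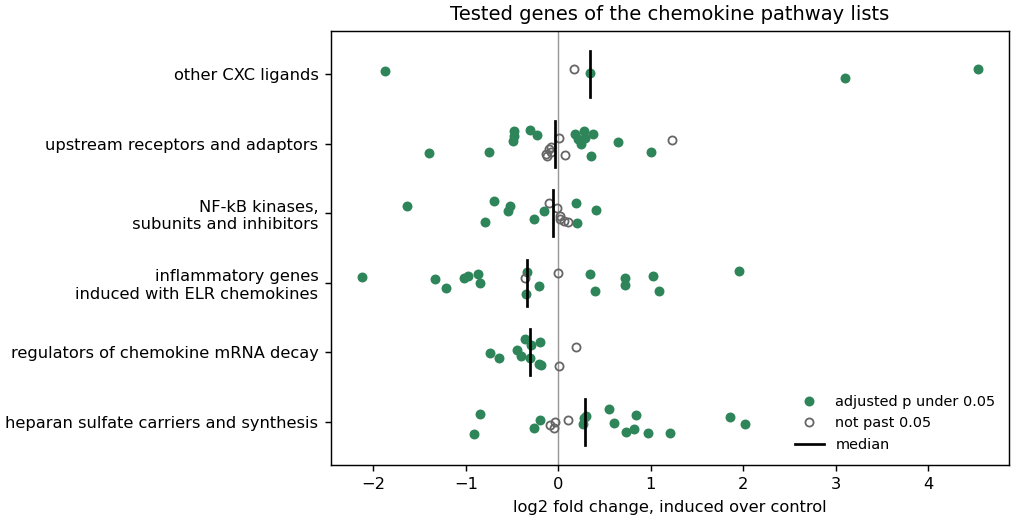
Log2 fold change, induced over control, of the tested genes of 6 pathway lists, 1 point per gene, filled where the adjusted p was under 0.05, with the list's median as a vertical line. Medians lie between -0.34 and 0.34, and the decay regulators are the list without a filled point above 0.

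Markers of cells that could carry these ligands were examined in the same libraries. Of 12 neutrophil markers, 7 had 0 reads in all 6 libraries (Mpo, Csf3r, Ngp, Retnlg, Ly6g, S100a9 and Ltf), and the summed level of the 12 ranged from 10.5 to 12.7 CPM in control and from 13.9 to 15.6 CPM in induced libraries, nearly all of it Mmp8 and Prtn3. Of 12 platelet and megakaryocyte markers, Gp6, Treml1 and Gp1bb had 0 reads, while the summed level, 4490 to 4803 CPM in control and 1583 to 1724 CPM in induced libraries, was nearly all Thbs1, which fibroblasts also make. Of the 3 tested genes of this list, 2 fell and 1 did not pass the test, beside 32.2% of all tested genes that fell. Itga2b, a platelet integrin gene, fell from 14.2 ± 0.114 to 6.82 ± 0.667 CPM (log2 fold change -1.05, adjusted p = 1.14e-07, edgeR) in the same direction as Pf4 and Ppbp, and its part in their values was not tested. Itgb3, the gene of its integrin partner, had 17.3 ± 0.988 and 16.1 ± 0.894 CPM (log2 fold change -0.10, adjusted p = 0.321, edgeR), and the platelet receptor gene Gp1ba had 20 control and 23 induced reads.

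Of 12 leukocyte and macrophage markers, the defining Ptprc, Itgam, Adgre1, Tyrobp and Cd52 had 0 reads in all libraries. The summed level of this list was 27.8 to 31.0 CPM in control and 54.8 to 62.8 CPM in induced libraries: Cd68 and Lyz2 rose (log2 fold changes 3.89 and 1.96, adjusted p = 7.41e-15 and 4.20e-10, edgeR), Fcer1g rose (adjusted p = 2.97e-09, edgeR) on 2 control and 187 induced reads, and Csf1r fell by 1.05 (adjusted p = 6.30e-09, edgeR). Their part in the values of the ligand genes was not tested. Of 8 endothelial markers, Tie1 had 0 reads, and the summed level was 1.80 to 2.14 CPM in control and 1.21 to 2.31 CPM in induced libraries.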

How the data were processed

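RNA of 3 control and 3 induced iCDC samples was sequenced. The submitters' processing notes name HISAT2 2.0.5, featureCounts 1.5.0-p3, DESeq2 1.16.1 and mm10. The strand setting is not given in the sources used here. The authors deposited raw read counts per gene, whole numbers without normalization, and FPKM values, which the authors scaled by library size and gene length. Their fold changes and p-values, and tables of gene ontology terms, were deposited too and not used. Coordinates are those of the deposited table, and the 8 genes have the same coordinates in GENCODE M21 (GRCm38).

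Counts were fitted with edgeR 4.0.16 (R 4.3.3): filterByExpr with a minimum count of 10, TMM scaling, quasi-likelihood test, Benjamini-Hochberg adjustment over all 14246 genes tested, called at an adjusted p under 0.05. Fold changes are group differences at edgeR's default prior count. Every count-based comparison was control against induced, by the labels' titles. The 8 genes, the gene lists and the chromosome 5 window were chosen with earlier results of these data known. Beside the 8 genes, the text names every tested gene of that window and up to 3 called genes with the smallest p per pathway list. It also names the 5 genes most like Cxcl5 and some of the marker genes, with or without reads. Outside this rule, Ccl2, Ccl7, Rc3h2, Il1rl1, Areg, Alb and Afp were chosen after their values were seen. Cxcr1 and Ackr1, named as receptors, and Cxcl14 and Cxcl16, named in the order of the ligands, are outside it too. Rates of 0 are bounded by 3 reads, and ratios of pooled reads have exact 95% intervals. Intervals cover counting error only, and bounds take the control reads as exact. Codons came from GENCODE M21 transcripts and promoters from RefSeq. Alternatives were other scalings and filters, DESeq2 1.42.0, limma 3.58.1 on log2(FPKM + 1) and log2(FPKM + 0.1), a stricter threshold, a replicate block, a wider window and leaving out each library. Control and induced samples share replicate numbers. Deviations of same-numbered samples from their group means correlated at 0.01, -0.01 and 0.03, so the numbers were not taken as pairs. No 2 libraries agreed within sampling noise (chi-square per degree of freedom 2.56 to 8.91 within groups).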

Additional observations from a re-analysis of the deposited data

How the results depend on the processing

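Of 189 values recomputed under the alternatives, 181 were classed as kept, 8 as moved and 0 as reversed. A value classed as kept could still change. The share of Cxcl5 in the induced ligand reads was 49.2%, and leaving out each induced library gave 38.5% to 60.3%, all classed as kept. At an adjusted p under 0.01, 7783 genes and 7 NF-kB genes were called, beside 9225 and 10 at 0.05. Single genes, such as Ankrd17 and Btc, also crossed 0.05 under some alternatives. Pseudocounts compress low genes: with limma on log2(FPKM + 1) the log2 fold change was -6.11 for Cxcl5, -4.08 for Cxcl15, -1.003 for Pf4 and -0.68 for Cxcl1. For Cxcl1 it was -2.19 with log2(FPKM + 0.1) and -2.52 with a prior count of 2. Leaving out each library gave -8.39 to -7.83 for Cxcl5, -8.13 to -6.58 for Cxcl15 (the lowest without induced library 2), -3.34 to -2.87 for Cxcl1 and -2.95 to -1.85 for Pf4. By Pearson correlation 0 of the 5 genes most like Cxcl5 stayed. Leaving out each library gave 8514 to 9348 called genes beside 9225, and 5 to 6 called neighbours.

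The replicate numbers share only a number. With the replicate block 9063 genes were called, the log2 fold change of Cxcl5 was -8.10, 6 neighbours and 11 decay regulators were called, and the counts of the other lists were as without the block. Levels at a few reads, as for Cxcl2, Cxcl3, Ppbp and Cxcr2, are limited by depth, since 3 reads correspond to 0.150 to 0.159 CPM in a library.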
